A study of Homo sapiens with 6 samples.

Results

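The high-mobility-group (HMG) proteins described here are the chromatin proteins of the HMGA, HMGB and HMGN families, and their 10 genes (HMGA1, HMGA2, HMGB1, HMGB2, HMGB3, HMGN1, HMGN2, HMGN3, HMGN4 and HMGN5) were found by symbol, through their Ensembl identifiers, among the 60656 genes of the count table. The rule that finds them reads gene names alone, but members and the further gene lists were chosen with earlier results of these data known. RNA was taken from parental ZR-75-1 cells, an oestrogen receptor-positive human breast cancer line whose RB1 gene was left unedited. The cells were kept in serum-containing RPMI medium and given either DMSO, the drug's solvent, or abemaciclib, an inhibitor of the kinases CDK4 and CDK6, at 500 nM. Both treatments are taken here to have lasted 4 days. For RNA-seq of cell lines given abemaciclib and fulvestrant, the study names a longer time. Each group had 3 libraries, which the study describes as independent biological replicates of 1 experiment. The 2 groups differ in abemaciclib alone, and all 6 libraries come from 1 line, so nothing here speaks for other lines. Libraries of cells lacking RB1 were not analysed here.

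HMG proteins are small, abundant, non-histone proteins that change the shape and accessibility of chromatin. HMGA proteins grip the minor groove of AT-rich DNA with short motifs called AT-hooks. HMGB proteins bend DNA with a pair of folded domains called HMG boxes and end in an acidic tail, and HMGN proteins bind the nucleosome core itself, where they oppose compaction by linker histone H1. HMGA genes are known for high activity in embryonic and tumour tissue, HMGB1 also for a second life outside the cell as a danger signal, and HMGB2 for its loss from the nuclei of cells that stop dividing for good.

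Library totals lay between 3317860 and 4013156 counts, and the luminal markers were high in every library. The 7 luminal epithelial markers (ESR1, GATA3, FOXA1, KRT8, KRT18, KRT19 and EPCAM) summed to between 6661 and 7275 CPM (counts divided by the library's TMM-corrected total and brought to a common scale) with DMSO and between 7563 and 8640 CPM with abemaciclib, where ESR1 and KRT19 were higher and KRT18 was lower. All 3 basal markers (KRT5, KRT14 and TP63) were at 0 in all libraries, the 3 leukocyte markers summed to at most 0.297 CPM in any library, and of the 4 markers of stroma and endothelium 3 were at 0, with COL1A1 at 13.1 ± 2.68 CPM with DMSO and 12.5 ± 2.67 CPM with abemaciclib (SD, n = 3). MKI67, a mark of cycling cells, was at 527, 494 and 557 CPM with DMSO and at 4.24, 3.21 and 7.57 CPM with abemaciclib.

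RNA of the HMG family was lower with abemaciclib in 7 of the 9 members with enough counts to be tested, while 0 members were higher (0 also when P was left unadjusted, at 0.05). Calls are those of the quasi-likelihood test in edgeR at an adjusted P under 0.05 (Benjamini–Hochberg, over 10863 genes). Over all genes tested, 25.7% passed the threshold, 13.3% lower and 12.5% higher. The median log2 fold change (abemaciclib minus DMSO) was −0.76 over the 9 members and −0.002 over all genes tested. By family, 3 of 3 HMGB genes, 3 of 5 HMGN genes and the 1 tested HMGA gene were lower. The sizes were far apart, with log2 fold changes from −5.30 for HMGB2 to 0.03 for HMGN1, which missed the threshold. Libraries of the 2 groups did not overlap in CPM for 8 of the 9 members, against 39.1% of all genes tested. In bulk RNA of this kind, fewer cells that use a gene and less RNA per cell cannot be told apart. MKI67 moved in the same direction as the members that fell, and its part in their change was not tested.

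**Figure D1:**
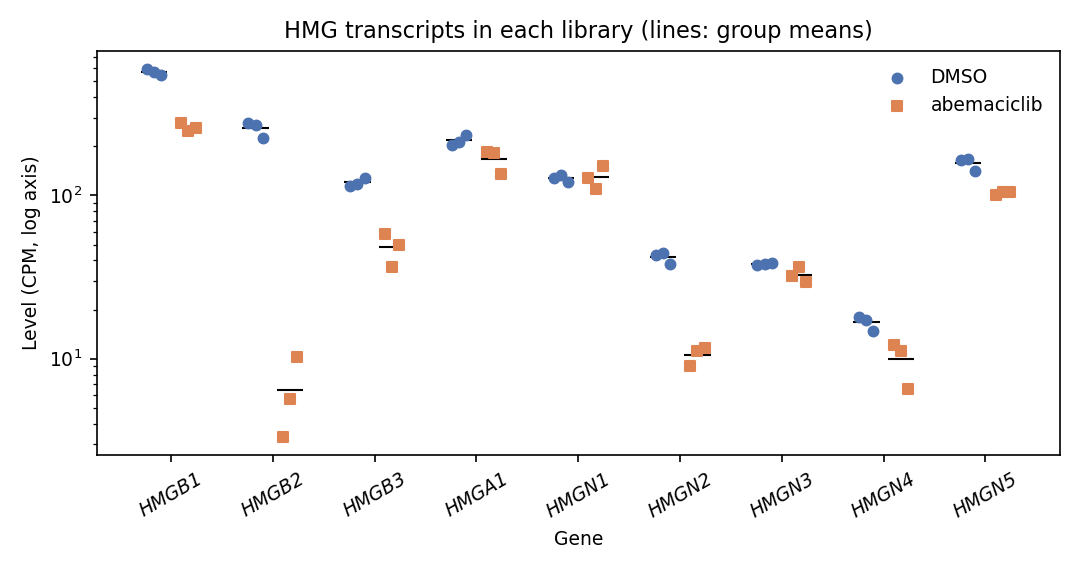
Level of 9 HMG genes in each of the 6 libraries, in CPM on a log axis, with DMSO as circles, abemaciclib as squares and group means as lines. HMGB2 dropped from between 224 and 279 CPM to between 3.33 and 10.3 CPM, whereas the groups overlapped for HMGN1. HMGA2 was at 0 throughout and is not drawn.

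The start regions of 4 members are shown for comparison, 3 that fell (HMGB1, HMGB3 and HMGN2) and 1 that did not pass the threshold (HMGN1). Each is the 250 bases before the annotated start, read 5′ to 3′ on the gene's strand, from RefSeq on GRCh38.p14. That table held 8 of the 10 members; HMGA2 and HMGB2 were without an entry. Capitals mark CCAAT, the box bound by the factor NF-Y, on either strand, and TTTGAA or TTCGAA, letters of the cell cycle homology region bound by the DREAM complex.

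HMGB1, chr13:30465937-30466186, minus strand: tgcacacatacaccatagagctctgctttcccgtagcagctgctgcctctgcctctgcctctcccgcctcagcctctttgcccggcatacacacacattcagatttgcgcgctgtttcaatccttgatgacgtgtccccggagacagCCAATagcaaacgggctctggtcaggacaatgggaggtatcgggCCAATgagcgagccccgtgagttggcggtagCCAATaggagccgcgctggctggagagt

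HMGB3, chrX:150983085-150983334, plus strand: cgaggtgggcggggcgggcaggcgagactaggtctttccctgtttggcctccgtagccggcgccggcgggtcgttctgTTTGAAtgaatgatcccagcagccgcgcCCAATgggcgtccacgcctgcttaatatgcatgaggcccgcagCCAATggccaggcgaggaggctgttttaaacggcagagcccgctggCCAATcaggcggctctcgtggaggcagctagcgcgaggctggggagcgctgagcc

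HMGN2, chr1:26472190-26472439, plus strand: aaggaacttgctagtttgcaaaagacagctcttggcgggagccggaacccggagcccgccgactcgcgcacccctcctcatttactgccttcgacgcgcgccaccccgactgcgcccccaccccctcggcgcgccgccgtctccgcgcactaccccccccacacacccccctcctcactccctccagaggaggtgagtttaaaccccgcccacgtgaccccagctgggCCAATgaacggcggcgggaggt

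HMGN1, chr21:39349089-39349338, minus strand: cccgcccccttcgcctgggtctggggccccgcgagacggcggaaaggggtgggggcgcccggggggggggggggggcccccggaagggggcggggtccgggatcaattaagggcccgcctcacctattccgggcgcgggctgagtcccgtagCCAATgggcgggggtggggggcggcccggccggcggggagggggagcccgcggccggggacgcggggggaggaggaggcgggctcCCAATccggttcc

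The 8 members had 12 start regions in the table, of which the one at the canonical transcript was read for each. CCAAT stood in 5 of these 8 regions and in 7 of all 12. It stood in 32.0% of all 35116 start regions of the table, which include further starts of the same gene. HMGB1 and HMGB3 held it 3 times each, as 2.93% of all regions did at least, while HMGN1 and HMGN3 held it 2 times and HMGN2 once. HMGA1, HMGN4 and HMGN5 held none. The cell cycle homology letters were present only in HMGB3 among these 8, against 14.3% of all regions. The E2F letters searched, TTTCCCGC, TTTGGCGC and TTTCGCGC on both strands, were in 0 of the 8 and in 2.32% of all regions. Over all 12 regions, 6 members had CCAAT in at least 1 (HMGA1 gained it at a second start) and 2 had the cell cycle homology letters (HMGB1 at a second start, and HMGB3). Members with CCAAT included HMGN1 and HMGN3, which missed the threshold, and HMGN5, which fell, had none. Any link between these letters and the changes was not tested. A match of letters is a description of this window and not a binding site.

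HMGB2, which encodes the HMGB protein tied most closely to dividing cells, fell furthest. Its gene (ENSG00000164104) lies on chromosome 4 of GRCh38 from 173331376 to 173334432. The 3 DMSO libraries held 279, 270.0 and 224 CPM (962, 909 and 738 counts), and the abemaciclib libraries 3.33, 5.67 and 10.3 CPM (11, 23 and 38 counts). Every abemaciclib library was therefore far below every DMSO library, with a mean of 6.42 CPM, or 2.49% of the DMSO mean of 257.5 CPM. This came to −5.30 ± 0.19 as log2 fold change ± standard error (adjusted P = 1.9e-18 by edgeR), which ranked 16 from the lowest among 10863 genes. The RNA that was left varied between libraries beyond their counting intervals: the exact Poisson interval (95%) was 1.66 to 5.96 CPM in abemaciclib replicate 1 and 7.27 to 14.1 CPM in replicate 3. These intervals cover counting error only.

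HMGB1, on chromosome 13 from 30456704 to 30617597 (ENSG00000189403), encodes the widely used member of the family and the one known as an extracellular danger signal. It was at 594, 571 and 543 CPM with DMSO and at 279, 248 and 259 CPM with abemaciclib. The groups were well apart, and the libraries within each were close. HMGB1 kept 46.0% of its DMSO level, or −1.12 ± 0.09 in log2 terms (± standard error, here and for the members that follow; adjusted P = 1.93e-10). HMGB3, an X-linked gene (X, 150980509 to 150990771, ENSG00000029993) known from blood stem cells, was at 114, 118 and 128 CPM with DMSO and at 58.1, 36.3 and 49.99 CPM with abemaciclib. It too was lower in all 3 treated libraries, at 40.1% of its DMSO level (log2 fold change −1.33 ± 0.14, adjusted P = 3.73e-08).

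Within the HMGB family the falls were unequal. The log2 ratio of HMGB2 to HMGB1, which does not depend on how libraries are scaled, was −1.15 ± 0.11 with DMSO and −5.50 ± 0.87 with abemaciclib (SD, n = 3). The ratio was lower in every treated library (P = 0.1 in a two-sided exact permutation test, which cannot go lower with 3 against 3; adjusted P = 0.133 over 8 ratios). The log2 ratio of HMGB3 to HMGB1 was −2.25 ± 0.15 and −2.47 ± 0.27 (SD, n = 3), with overlapping libraries (exact permutation test, P = 0.5, adjusted P = 0.571). The difference of −0.23 between the groups was smaller than the spread within the treated libraries.

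**Figure D2:**
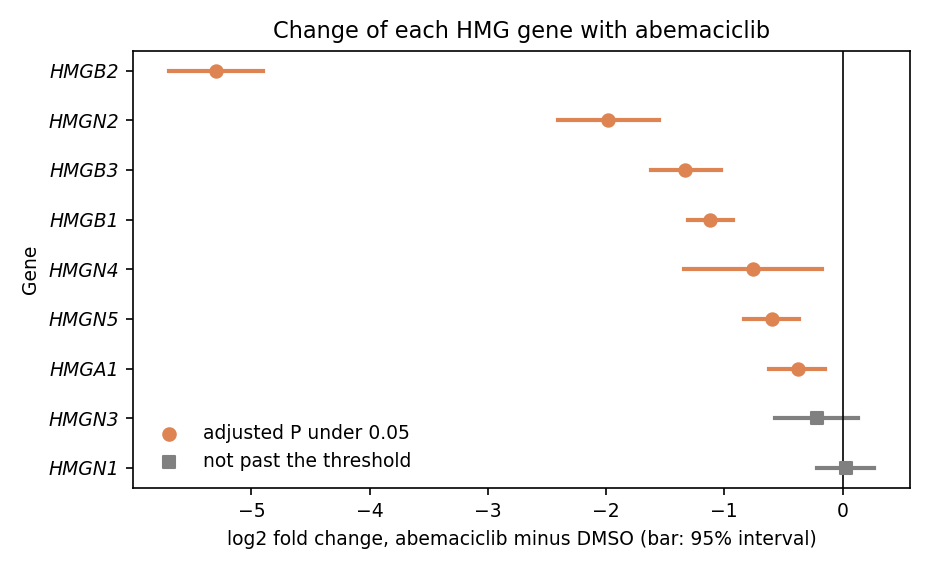
Log2 fold change of 9 HMG genes, abemaciclib minus DMSO, with 95% intervals from edgeR's fit. HMGB2 stands apart at −5.30, the intervals of HMGN1 and HMGN3 cross 0, and the other members lie between −1.98 and −0.38.

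HMGN2 showed the largest fall among the nucleosome-binding HMGN genes. It lies on chromosome 1 from 26472440 to 26476642 (ENSG00000198830) and encodes one of the founding pair of this family, together with HMGN1. HMGN2 was at 43.2, 44.6 and 38.2 CPM with DMSO and at 9.08, 11.1 and 11.6 CPM with abemaciclib. The treated libraries stayed within a narrow band, at 25.2% of the DMSO mean (log2 fold change −1.98 ± 0.21, adjusted P = 2.11e-08).

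HMGN1, the other of that pair (chromosome 21, 39342315 to 39349647, ENSG00000205581), was at 127, 133 and 121 CPM with DMSO and at 128, 109 and 152 CPM with abemaciclib. The treated libraries lay on both sides of the DMSO libraries. Its log2 fold change was 0.03 with a 95% interval from −0.22 to 0.27 (adjusted P = 0.903), so a fall of the size seen for HMGN2 lies outside the interval. The sign of this small value turned without DMSO replicate 3 (−0.01) and without abemaciclib replicate 3 (−0.10). The log2 ratio of HMGN1 to HMGN2 went from 1.60 ± 0.06 to 3.61 ± 0.28 (SD, n = 3), higher in all 3 treated libraries (exact permutation test, P = 0.1, adjusted P = 0.133).

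HMGN5, the X-linked member with a long acidic tail (X, 81113699 to 81201913, ENSG00000198157), was at 165, 166 and 140 CPM with DMSO and at 101, 105 and 105 CPM with abemaciclib. All treated libraries were below the DMSO libraries and nearly level with each other. HMGN5 kept 66.1% of its DMSO level (log2 fold change −0.60 ± 0.11, adjusted P = 0.000163). HMGN4 (chromosome 6, 26538366 to 26546933, ENSG00000182952), a gene that arose as an RNA-derived copy of HMGN2, had the fewest counts of the tested members. It was at 18.0, 17.2 and 14.8 CPM with DMSO and at 12.1, 11.1 and 6.49 CPM with abemaciclib. The groups did not overlap, but the call was marginal (log2 fold change −0.76 ± 0.28, adjusted P = 0.0497) and was lost under 9 of 13 alternatives, with adjusted P from 0.0382 to 0.212 over them.

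HMGN3 (chromosome 6, 79201245 to 79234689, ENSG00000118418), known for activity in brain and pancreatic islets, was at 37.7, 38.0 and 38.8 CPM with DMSO and at 32.1, 36.5 and 29.5 CPM with abemaciclib. Each treated library was slightly below the DMSO libraries, but the difference missed the threshold (−0.22 on the log2 scale, 95% interval −0.57 to 0.13, adjusted P = 0.382). Against HMGN2 as the common partner, the log2 ratio was higher by 1.76 for HMGN3, by 1.19 for HMGN4 and by 1.40 for HMGN5, without overlap between groups in any of the 3 (exact permutation test, P = 0.1 each, adjusted P = 0.133). The fall of HMGN2 itself (−1.98) enters each of these ratios and that of HMGN1 to HMGN2, so they are not independent results.

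HMGA1 was the HMGA gene in use. It lies on chromosome 6 from 34236873 to 34246231 (ENSG00000137309) and encodes an AT-hook protein that is abundant in many tumours. HMGA1 was at 205, 213 and 234 CPM with DMSO and at 184, 182 and 135 CPM with abemaciclib. The groups did not overlap, though 2 of the treated libraries came close to the lowest DMSO library. HMGA1 kept 76.8% of its DMSO level (log2 fold change −0.38 ± 0.11, adjusted P = 0.0143), and the call was lost without DMSO replicate 3 (−0.32, adjusted P = 0.0807) and without abemaciclib replicate 3 (−0.25, adjusted P = 0.0623). HMGA2 (chromosome 12, 65824460 to 65966291, ENSG00000149948), the member typical of embryonic tissue, had 0 counts in all 6 libraries, which allows up to between 0.74 and 0.909 CPM depending on the library. LIN28B, which encodes an RNA-binding protein that shields HMGA2 from the let-7 microRNAs, also had 0 counts in all 6.

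The summed level of the 10 genes was 1583, 1571 and 1481 CPM with DMSO and 806, 745 and 759 CPM with abemaciclib. The treated sum was thus 49.8% of the DMSO sum, with the libraries of each group close together. The HMGB genes together fell to 33.4% of their DMSO level (947 ± 47.3 to 317 ± 25.2 CPM, SD, n = 3), whereas the HMGN genes kept 75.2% (381 ± 24.5 to 286 ± 16.1 CPM) and the HMGA genes 76.8% (217 ± 15.0 to 167 ± 27.3 CPM). The kit reads transcript ends, so counts were not divided by length when members were added or compared.

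The make-up of this pool shifted. HMGB genes held 61.3% ± 1.00 of the HMG counts with DMSO and 41.1% ± 1.84 with abemaciclib (SD, n = 3), while HMGN genes went from 24.6% ± 0.78 to 37.2% ± 2.58. HMGB2 alone went from 16.6% ± 1.36 to 0.842% ± 0.475, and HMGN1 from 8.22% ± 0.211 to 16.8% ± 2.82. A share can rise without a rise in level. HMGN1 averaged 127 CPM with DMSO and 129.5 CPM with abemaciclib, and the summed HMGN level fell. HMGB1 remained the most abundant member in both groups, at 36.9% ± 0.60 and 34.0% ± 0.642. The log2 ratio of summed HMGB to summed HMGN counts moved from 1.32 ± 0.04 to 0.14 ± 0.11 (SD, n = 3), lower in all 3 treated libraries (exact permutation test, P = 0.1, adjusted P = 0.133). The ratio of HMGA to HMGN was −0.81 ± 0.19 and −0.79 ± 0.33 and overlapped (exact permutation test, P = 0.9, adjusted P = 0.9).

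**Figure D3:**
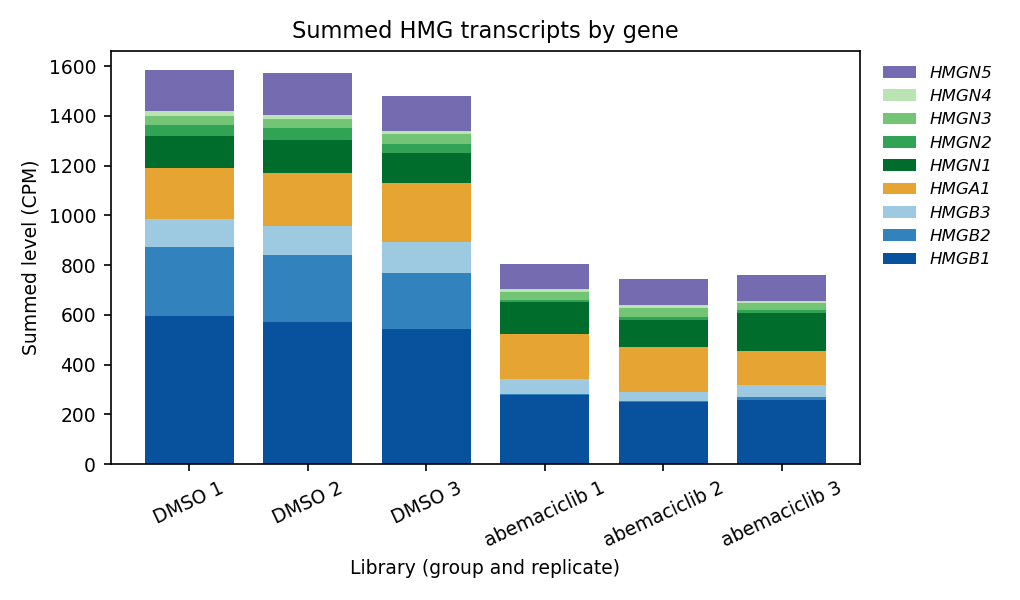
Summed level of the HMG genes in each library, in CPM, stacked by gene. The 3 abemaciclib bars reach 745 to 806 CPM against 1481 to 1583 CPM with DMSO, and the HMGB2 layer is nearly absent from them.

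HMG genes have many processed pseudogenes, copies of the mature RNA scattered through the genome, which can share reads with the parent gene. The table held 48 annotated for HMGB1, 38 for HMGN2, 32 for HMGN1, 29 for HMGB3, 8 for HMGA1 and 1 each for HMGB2 and HMGN3. Counts on them were few, from 0.112% of the parent's counts for HMGB2 to 4.75% for HMGB1 over all libraries. How reads with several alignments were treated is not known, so these counts cannot show how many reads were shared or lost. The pseudogenes of HMGB1 held 94, 97 and 84 counts with DMSO and 42, 45 and 49 with abemaciclib, those of HMGB3 10, 9 and 14 and then 15, 14 and 12, and those of HMGN1 23, 14 and 24 and then 18, 32 and 12. The HMGB1 copies had lower counts in every treated library, which was not tested, and those of HMGB3 and HMGN1 overlapped between groups. With each member's counts summed with those of its pseudogenes, 7 members were again lower. In the last 400 bases of the 10 annotated transcripts, no stretch of 100 bases, the read length, occurred exactly anywhere else in the genome, as for 98.8% of genes tested. Near copies were present for HMGN1 (3 of at least 95% identity, the best at 96.3%) and HMGA1 (3, the best at 97.1%), with 1 such copy for HMGN3 (95.7%), and copies of HMGB3, HMGN4 and HMGN5 were at most 93.3% identical. None of at least 100 bases was found for HMGA2, HMGB1, HMGB2 or HMGN2 within these 400 bases. Sequence further inside the transcripts was not searched, so sharing of reads with pseudogenes there was not tested. No other annotated gene overlapped the last 500 bases of any member.

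Among tested genes with a mean of at least 20 CPM, the 5 whose levels relative to the DMSO mean lay nearest to those of HMGB2 over the 6 libraries were TYMS, CCNA2, PCLAF, PTTG1 and NEURL1B, with root mean square differences of 0.49 to 0.62 on the log2 scale over 6144 genes compared. TYMS makes thymidylate for DNA, CCNA2 encodes cyclin A2, PCLAF binds the replication clamp PCNA, and PTTG1 encodes securin, the guard of sister chromatid cohesion. Their log2 fold changes were −6.06, −5.17, −4.77 and −5.01, and NEURL1B, which encodes a ubiquitin ligase of Notch signalling, had −5.45. The 3′ ends of TYMS and CCNA2 overlap ENOSF1 and EXOSC9 on the opposite strand, so their counts are uncertain. The treated libraries held only 4, 2 and 7 counts of TYMS and 2, 4 and 6 of CCNA2. The distances of these 2 genes from HMGB2 therefore carry much counting error.

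Other proteins also carry an HMG box, among them SOX and TCF transcription factors and subunits of remodelling complexes. Of 33 such genes, 25 had enough counts, of which 7 (28.0%) were lower with abemaciclib and 18 missed the threshold. Over all genes tested, 13.3% were lower. By edgeR 0 were higher, or 3 when P was left unadjusted, and the median was −0.07 on the log2 scale. SSRP1, the HMG-box subunit of the histone chaperone FACT, was at 240, 256 and 232 CPM with DMSO and at 146, 116 and 136 CPM with abemaciclib (log2 fold change −0.87, adjusted P = 3.55e-07). WDHD1, a replication fork protein, fell by 0.96 (adjusted P = 0.00254). SOX18 (log2 fold change −1.91) went from low levels of 19.4, 19.6 and 7.57 CPM with DMSO to 2.72, 5.43 and 4.05 CPM with abemaciclib (adjusted P = 0.000397). The smallest falls past the threshold were those of SOX12 (−0.37), SOX9 (−0.48) and PBRM1 (−0.55), of which SOX9 lost its call without DMSO replicate 3 or abemaciclib replicate 3, and SOX12 without DMSO replicate 2 or 3 or abemaciclib replicate 1. HMGB4, the testis member of the HMGB family, had 0 counts in all libraries, as did TOX, TOX2 and SOX17. The mitochondrial HMG-box gene TFAM (−0.04, adjusted P = 0.868) and the ribosomal DNA factor gene UBTF (−0.07, adjusted P = 0.71) missed the threshold.

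Linker histones occupy the nucleosome where HMGN and HMGB proteins also bind. Of 10 linker histone genes, 5 were tested and all 5 were lower, against 13.3% of all genes tested. The median log2 fold change of the 5 was −2.79, and the other 5 (H1-1, H1-3, H1-6, H1-7 and H1-8) had 0 counts. H1-2 went from 598, 608 and 809 CPM with DMSO to 99.5, 104 and 87.6 CPM with abemaciclib (log2 fold change −2.79, adjusted P = 7.26e-17). H1-4 had a log2 fold change of −2.83 and H1-10 one of −2.32. H1-5 had 197 counts over the DMSO libraries and 1 over the abemaciclib libraries, 0.464% of the DMSO level with an exact interval (95%) from 0.0117% to 2.62% for counting error. Most replication-dependent histone RNAs lack a poly(A) tail, which this kit needs, so only their polyadenylated part was counted.

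Of 24 genes of histone chaperones and known HMG partners, 20 had enough counts. Of these, 13 (65.0%) were lower with abemaciclib and 1 was higher, against 13.3% and 12.5% of all genes tested. The list median was −0.42 on the log2 scale. The gene for the centromere chaperone HJURP fell by 3.73 (log2, adjusted P = 7.06e-12), ANP32E, which removes the variant H2A.Z, by 1.83 (adjusted P = 7.35e-08) and ASF1B by 1.73 (adjusted P = 4.22e-09), with an antisense gene over the 3′ end of ASF1B. SUPT16H, the partner of SSRP1 in FACT, fell less, by 0.43 (adjusted P = 0.0043), and SET, which joins HMGB2 in a complex of the endoplasmic reticulum, by 0.48 (adjusted P = 0.000125). ANP32A and APEX1, with −0.35 and −0.28, lay just past the threshold and lost their calls under 8 and 9 of 12 alternatives. PIP4P1 overlaps the 3′ end of APEX1 on the opposite strand. NME1 was the 1 gene higher (0.29, adjusted P = 0.0305). Its 3′ end is shared with the NME1-NME2 readthrough gene, and the call was lost in 5 of the 12 alternatives, namely the replicate block and the omission of any DMSO library or of abemaciclib replicate 1.

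Genes of proteins that meet HMGB1 outside the cell were mostly at or near 0. Of 10, only CD24 and SDC3 had enough counts to be tested, and AGER, TLR2, TLR4, TREM1 and CXCL12 had group means under 1 CPM, with CXCR4 at 0.795 and 2.84 CPM and TLR9 and HAVCR2 at 0. SDC3, which encodes the proteoglycan syndecan-3, was at 4.93, 6.83 and 2.73 CPM with DMSO and at 17.9, 17.3 and 12.4 CPM with abemaciclib (log2 fold change 1.70, adjusted P = 0.000414). CD24, which encodes a surface glycoprotein, rose by 0.37 (adjusted P = 0.0284), and its call was lost under 5 of 12 alternatives: the replicate block, and the omission of DMSO replicate 2 or 3 or of abemaciclib replicate 1 or 2.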

How the data were processed

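Counts of 3′ mRNA libraries were analysed for 6 libraries of parental ZR-75-1 cells, grouped by the treatment in their labels. Per the labels and the study's methods, the authors trimmed single-end reads of 100 bases, aligned them to hg38 with STAR (2.7.5b) and counted them per gene with featureCounts (2.0.1) on GENCODE 35. The deposited values are these raw counts, and whether strand was used and how reads with several alignments were treated are not given in the sources used here. The labels and the study's methods name different versions of the 3′ kit, RW and FW. No molecular identifiers are described.

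The contrast of abemaciclib with DMSO was fitted on all genes kept by filterByExpr (10863) with edgeR 4.0.16 in R 4.3.3: TMM scaling, then glmQLFit and glmQLFTest, with calls at a Benjamini–Hochberg adjusted P under 0.05. Replicates within a group differed by more than sampling noise (chi-square per gene 2.82 to 7.28). The standard error is the log2 fold change divided by the square root of F. The fit was also tested on simulated data. Ratios within libraries used exact permutation tests (scipy 1.17.1). Coordinates are from GENCODE 44 on GRCh38, and copies of transcript ends were searched with BLAST 2.17.0. Members and lists were chosen with earlier results of these data known. All members were named, and of each further list the 3 lowest and 3 highest genes past the threshold, with others named after their values were seen. Alternatives were DESeq2 1.42.0, its size factors, total counts, other filters, a replicate block, a minimum log2 fold change of 1, pseudogene sums and each library left out. Protein sequences were not used here, and 1 gene of the linker histone list is not reported here by name, although the list's count and median include it.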

Additional observations from a re-analysis of the deposited data

How the results depend on the processing

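The calls for HMGB1, HMGB2, HMGB3, HMGN2 and HMGN5 held under all 13 alternatives run on each, with log2 fold changes from −5.79 to −5.02 for HMGB2 and from −2.04 to −1.88 for HMGN2. The count of members lower was 7, and 4 once changes under 1 (log2) were left out, by construction; it was 6 with DESeq2 and 5 to 7 with 1 library left out, with a median from −0.91 to −0.60. HMGN4 and HMGA1 were the calls lost under those 13 alternatives, which do not include the minimum change. That minimum left out HMGN5 (−0.60) as well. HMGN4 had −0.75 (adjusted P = 0.0736) with DESeq2 and lost its call without any library except abemaciclib replicate 1. HMGN1 ranged from −0.10 to 0.14 with 1 library left out. The log2 ratio of HMGA to HMGN ranged from −0.08 to 0.21, against 0.02 over all libraries. Over all genes, 1354 were higher and 1442 lower, and 322 and 645 with a minimum change of 1 (log2). That minimum left 1 of the other HMG-box genes lower, 6 chaperone and partner genes lower and 0 higher, and 1 HMGB1 receptor gene higher. With 1 library left out, 4 to 7 other HMG-box genes were lower (4 without DMSO replicate 3) and 0 to 2 higher (2 without abemaciclib replicate 3), 0 to 1 chaperone genes were higher, with a list median from −0.46 to −0.33, and 1 to 2 receptor genes were higher. With at least 10 counts in every library, 1 receptor gene was tested and higher. The cause of these shifts was not tested. The replicate numbers did not pair libraries (correlations of deviations −0.04, 0.01 and −0.09). With the replicate block, 6 members were lower (HMGN4 lost, adjusted P = 0.0548), 0 chaperone genes and 1 receptor gene were higher, and 1139 genes were higher and 1280 lower. Depth limits the treated level of HMGB2, which rests on 11 to 38 counts, and HMGA2, at 0.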

Other observations

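The gene HMGA2-AS1 (ENSG00000197301), annotated inside HMGA2 on the opposite strand, had counts in every library, while 0 were assigned to HMGA2. Whether counting used strand is not known, so reads from the 2 strands cannot be told apart here. It was at 2.61, 3.27 and 1.21 CPM with DMSO and at 4.24, 1.48 and 1.89 CPM with abemaciclib, and the groups overlapped. It had too few counts to be tested. HMGN3-AS1, an antisense gene to which the same limit applies, was at 0 in all libraries except abemaciclib replicate 3, at 0.54 CPM.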
